A study of Mus musculus with 13 samples.

Results

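The 10 genes described are *Lpl*, *Lmf1*, *Gpihbp1*, *Angptl4*, *Vldlr*, *Cd36*, *Fabp4*, *Fabp5*, *Slc27a1* and *Acsl1*, which act in the hydrolysis of triglyceride at the capillary wall and in the uptake, binding and activation of the fatty acids it releases. They were chosen by name for these roles, with earlier results of these data known. Each was found by its symbol among the 33618 Ensembl genes of the deposited count table. The study asked what loss of lamin A/C in mature adipocytes does to white adipose tissue. RNA from whole parametrial white adipose tissue (pmWAT), a visceral depot of female mice, was sequenced in 13 libraries, 7 labelled fl/fl and 6 labelled iADKO. Mice of both groups were homozygous for *Lmna* alleles with *loxP* sites (*Lmna fl/fl*), were kept at 22 °C, received tamoxifen at 50 mg/kg on 5 consecutive days at 12 to 14 weeks of age, and were dissected 2 weeks later. The iADKO mice also carried *Adipoq*-Cre ERT2+/-, a tamoxifen-activated Cre driven by the adiponectin promoter of adipocytes, and the control mice carried no Cre. Total counts per library ran from 19147428 to 19776491 in fl/fl (n = 7) and from 18854223 to 19569221 in iADKO (n = 6). Each library name carries its own animal number, and all 13 libraries share a single batch label.

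Lipoprotein lipase is made in adipocytes, folded in the endoplasmic reticulum and moved across capillary endothelial cells to the vessel lumen, where it releases fatty acids from the triglyceride of chylomicrons and very low density lipoproteins. In white fat it sets how much circulating triglyceride the depot stores, with feeding raising and fasting lowering its activity. The released fatty acids enter the cell, are carried by cytosolic binding proteins and are joined to coenzyme A before they are esterified or oxidized.

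*Lmna* itself (ENSMUSG00000028063, chromosome 3 from 88387454 to 88417299 of GRCm39, minus strand) had a lowest value of 74.7, a median of 83.5 and a highest value of 98.5 CPM in the libraries labelled fl/fl. Those labelled iADKO had a lowest value of 80.1, a median of 96.8 and a highest value of 109 CPM, where CPM are counts scaled to a common library size after TMM normalization, a correction of the library totals. The groups overlapped, and 3 iADKO libraries lay above every fl/fl library, and the log2 fold change, iADKO over fl/fl, was 0.19 (SE 0.079, edgeR adjusted p = 0.0785, from edgeR's quasi-likelihood test with Benjamini-Hochberg adjustment). The deposited count is that of the whole gene and the exons between the *loxP* sites cannot be told apart in it, so it does not check the labels. Without fl/fl replicate 1 or iADKO replicate 6 the higher level passed, at 0.23 (adjusted p = 0.0411) and 0.24 (adjusted p = 0.0208) (range over the alternatives 0.0208 to 0.266). A measure that runs the way the labels say is *Scd1*, a desaturase gene looked up after its values were seen, whose protein the study's blots of other white depots show much reduced in iADKO. It was at 43304 ± 8656 CPM (SD, n = 7) on average in fl/fl against 8795 ± 4448 CPM (SD, n = 6) in iADKO, with no overlap between the groups and a log2 fold change of -2.30 (SE 0.28, edgeR adjusted p = 0.000244). Every direction below is that of the libraries as labelled.

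Of the 10 genes, edgeR's quasi-likelihood test placed 7 lower in iADKO (Benjamini-Hochberg adjusted p under 0.05), where it placed 16.3% of the 16753 genes tested lower and called 30.5% in either direction. *Acsl1*, *Slc27a1* and *Lpl* had the largest changes: *Acsl1* fell by 48.7%, *Slc27a1* fell by 47.3% and *Lpl* fell by 45.4%, followed by *Fabp4*, *Lmf1*, *Gpihbp1* and *Vldlr*. The count of members higher in iADKO was 0 (14.1% of all genes tested), also at an unadjusted p under 0.05 and by DESeq2's Wald test, and 1 (*Angptl4*) where replicate number was a block. *Cd36*, *Fabp5* and *Angptl4* did not pass. The median log2 fold change of the members was -0.49, beside 0.033 for all genes tested. In *Lpl*, *Lmf1* and *Acsl1* every iADKO library lay below every fl/fl library, which held for 3.93% of all genes tested, with 2.71% separated the other way. Together the 10 genes took 2.08% ± 0.312 (SD, n = 7) of the counts in fl/fl and 1.49% ± 0.205 (SD, n = 6) in iADKO. Measures of the whole library moved with the groups too. Mitochondrially encoded genes held 4.18% ± 0.751 (SD, n = 7) of the counts in fl/fl and 2.91% ± 0.580 (SD, n = 6) in iADKO, and the TMM factors did not overlap, at 0.892 to 1.018 in fl/fl and 1.046 to 1.102 in iADKO. These factors lower the CPM of iADKO relative to fl/fl: as log2 ratios of the mean share of the counts, with no TMM and no test, the differences were -0.67 for *Lpl*, -0.31 for *Lmf1*, -0.25 for *Gpihbp1*, 0.49 for *Angptl4*, -0.15 for *Vldlr*, -0.056 for *Cd36*, -0.40 for *Fabp4*, -0.077 for *Fabp5*, -0.72 for *Slc27a1* and -0.76 for *Acsl1*. On this scale every decrease was smaller and the rise of *Angptl4* larger. *Lpl*, *Lmf1* and *Acsl1* still did not overlap between the groups, though *Lmf1* and *Acsl1* only by a narrow gap. The lowest fl/fl and highest iADKO shares were 0.00298% and 0.00297% for *Lmf1*, 0.249% and 0.245% for *Acsl1* and 0.675% and 0.611% for *Lpl*. With TMM factors computed without mitochondrially encoded genes, and with DESeq2's size factors, 7 members were lower. In bulk tissue, fewer cells of a type and less RNA per cell cannot be told apart.

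**Figure D1:**
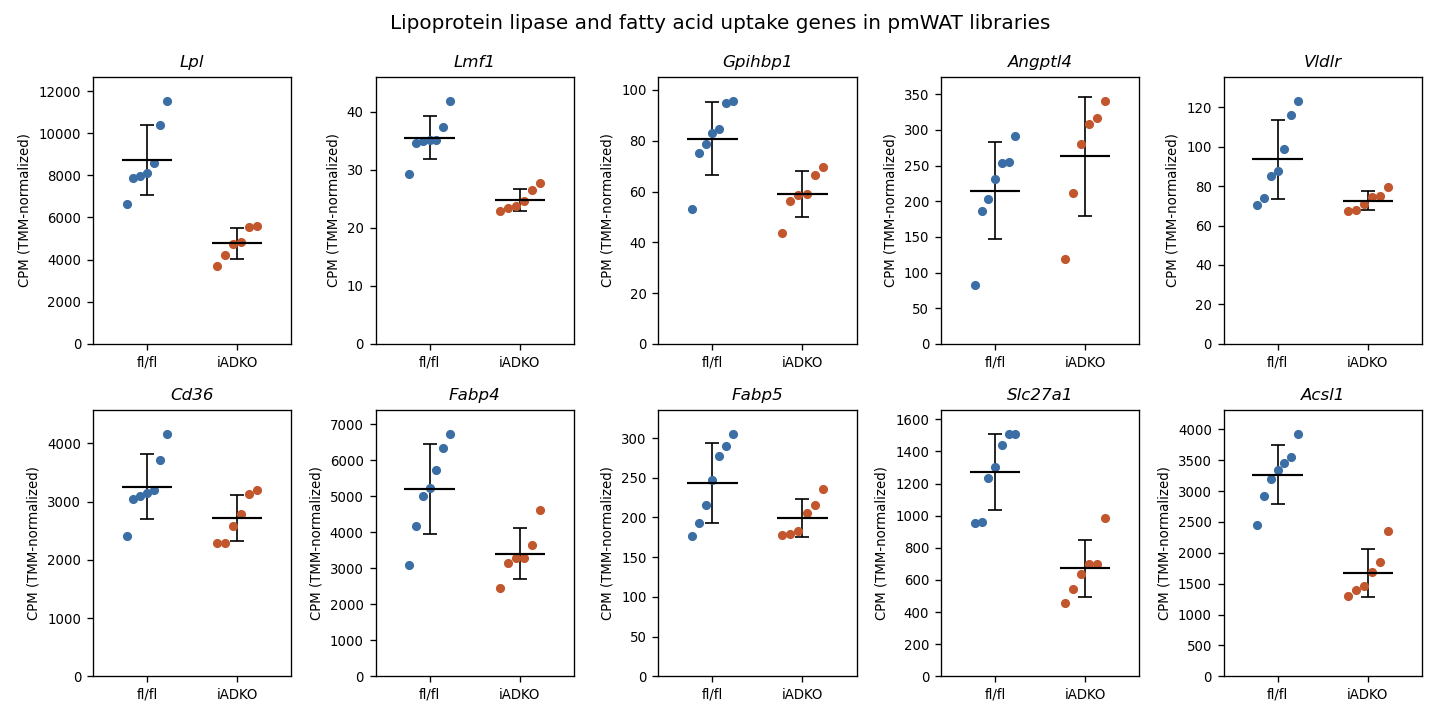
Level of each of the 10 genes in CPM, each on a linear axis from 0, in libraries labelled fl/fl (n = 7, blue) and iADKO (n = 6, orange). Points are libraries, and the horizontal lines and bars are the mean and SD. The groups stand apart in *Lpl*, *Lmf1* and *Acsl1* and overlap in the other panels.

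*Lpl* (ENSMUSG00000015568, chromosome 8 from 69284603 to 69360100, plus strand) encodes the lipase. In fl/fl it had a lowest value of 6644, a median of 8119 and a highest value of 11519 CPM. In iADKO it had a lowest value of 3679, a median of 4789 and a highest value of 5602 CPM. The lowest fl/fl library, replicate 5, was still above the highest iADKO library, replicate 1, and fl/fl replicates 1 and 3 stood highest. *Lpl* was at 8728 ± 1659.9 CPM (SD, n = 7) on average in fl/fl against 4766 ± 751 CPM (SD, n = 6) in iADKO, and its log2 fold change was -0.87 (SE 0.15, edgeR adjusted p = 0.00111).

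*Lmf1* (ENSMUSG00000002279, chromosome 17 from 25798048 to 25888183, plus strand) encodes the endoplasmic reticulum factor that lipoprotein lipase needs to fold into its active form. It had a lowest value of 29.3, a median of 35.1 and a highest value of 41.8 CPM in fl/fl. The iADKO libraries had a lowest value of 22.8, a median of 24.1 and a highest value of 27.8 CPM. The groups did not overlap, and the iADKO values spread over a narrow span. *Lmf1* was at 35.5 ± 3.71 CPM (SD, n = 7) on average in fl/fl against 24.8 ± 1.94 CPM (SD, n = 6) in iADKO, and its log2 fold change was -0.52 (SE 0.075, edgeR adjusted p = 0.000449). Relative to *Lpl* in the same library, *Lmf1* was higher in iADKO, with a difference in log2 ratio of 0.36 (SE 0.12, two-sided exact permutation with n = 7 and 6, p = 0.014, adjusted over the 6 ratios p = 0.021). Without iADKO replicate 5 the adjusted p of this ratio was 0.0511 (range over the alternatives tried 0.00568 to 0.0511).

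*Gpihbp1* (ENSMUSG00000022579, chromosome 15 from 75468474 to 75471331, plus strand) encodes the protein of capillary endothelial cells that binds the lipase and carries it to the lumen. Its fl/fl libraries had a lowest value of 53.2, a median of 82.9 and a highest value of 95.6 CPM. Its iADKO libraries had a lowest value of 43.5, a median of 58.9 and a highest value of 69.8 CPM. All fl/fl libraries but replicate 5 were above the highest iADKO library, and replicate 5 lay among the iADKO libraries. *Gpihbp1* was at 80.7 ± 14.4 CPM (SD, n = 7) on average in fl/fl against 58.9 ± 9.16 CPM (SD, n = 6) in iADKO, and its log2 fold change was -0.45 (SE 0.13, edgeR adjusted p = 0.0187).
The change of *Gpihbp1* was smaller than that of *Lpl*. Their log2 ratio ran from -6.95 to -6.56 in the libraries labelled fl/fl and -6.63 to -5.95 in those labelled iADKO, a difference of 0.42 (SE 0.12, two-sided exact permutation with n = 7 and 6, p = 0.00175, adjusted over the 6 ratios p = 0.00524). With replicate number as a block it was 0.43 and did not pass (exact sign-flip permutation, adjusted p = 0.075, range over the alternatives 0.00524 to 0.075). That test uses only 6 pairs, so the smallest p it can give is far larger. Among the libraries with animal numbers 747 to 765 the difference was 0.14. *Gpihbp1* was also lower relative to *Pecam1*, one endothelial gene. That log2 ratio ran from -1.90 to -1.34 in the libraries labelled fl/fl and -2.44 to -1.87 in those labelled iADKO, a difference of -0.49 (SE 0.10, two-sided exact permutation with n = 7 and 6, p = 0.00175, adjusted over the 6 ratios p = 0.00524), and 5 of the 6 iADKO libraries lay below every fl/fl library. This ratio depends on the marker it is set against. Of the 7 endothelial markers *Pecam1* had the most positive log2 fold change (0.046), while *Kdr* (-0.48, no overlap between the groups) fell about as much as *Gpihbp1* itself and *Cdh5* had -0.29. No ratio to another endothelial marker was tested.

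*Angptl4* (ENSMUSG00000002289, chromosome 17 from 33992724 to 34000804, minus strand) encodes a secreted inhibitor of the lipase. It had a lowest value of 82.9, a median of 231 and a highest value of 292 CPM in fl/fl. In iADKO it had a lowest value of 119, a median of 294 and a highest value of 340.2 CPM. The lowest library of each group was its replicate 2, and 3 iADKO libraries lay above every fl/fl library. The spread within each group was wide, with 215 ± 67.9 CPM (SD, n = 7) on average in fl/fl against 263 ± 83.3 CPM (SD, n = 6) in iADKO, and the log2 fold change was 0.29 (SE 0.28, edgeR adjusted p = 0.45). With replicate number as a block in edgeR, which leaves out fl/fl replicate 7, it was 0.39 and passed (SE 0.10, adjusted p = 0.0216, range over the alternatives 0.0216 to 0.773), with *Angptl4* higher in iADKO in 5 of the 6 same-numbered pairs. The labels do not say whether libraries with the same replicate number belong together.
Set against *Lpl* in the same library, *Angptl4* was higher in iADKO. The log2 ratio of *Angptl4* to *Lpl* ran from -6.56 to -4.79 in the libraries labelled fl/fl and -5.14 to -3.71 in those labelled iADKO, a difference of 1.16 (SE 0.32, two-sided exact permutation with n = 7 and 6, p = 0.0035, adjusted over the 6 ratios p = 0.00699), and 5 of the 6 iADKO libraries lay above every fl/fl library. The adjusted p of this ratio stayed between 0.00568 and 0.0469 over the alternatives tried with a test, the highest with replicate number as a block.

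*Vldlr* (ENSMUSG00000024924, chromosome 19 from 27193862 to 27231631, plus strand) encodes a receptor of triglyceride-rich lipoproteins. The fl/fl libraries had a lowest value of 70.2, a median of 87.9 and a highest value of 123 CPM. The iADKO libraries lay close together, with a lowest value of 67.5, a median of 72.7 and a highest value of 79.7 CPM. The highest values were in fl/fl replicates 1, 2 and 3, and fl/fl replicates 4 and 5 lay within the iADKO range. The log2 fold change was -0.36 (SE 0.12, edgeR adjusted p = 0.0347), and it did not pass in 13 of the 24 alternative fits, with an adjusted p of 0.00787 to 0.0717 over them.

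*Cd36* (ENSMUSG00000002944, chromosome 5 from 17986432 to 18094067, minus strand) encodes the fatty acid translocase of the plasma membrane, which endothelial cells and macrophages also make. In fl/fl it had a lowest value of 2410.1, a median of 3154 and a highest value of 4167 CPM. The iADKO libraries had a lowest value of 2297, a median of 2681 and a highest value of 3204 CPM. The groups overlapped, with fl/fl replicates 1, 3 and 6 above every iADKO library. The log2 fold change was -0.26 (SE 0.13, edgeR adjusted p = 0.139). Without fl/fl replicate 5, the lowest of its group, it was -0.32 with an adjusted p of 0.0426 (range over the alternatives 0.0426 to 0.339).

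*Fabp4* (ENSMUSG00000062515, chromosome 3 from 10268785 to 10273737, minus strand) and *Fabp5* (ENSMUSG00000027533, chromosome 3 from 10077602 to 10081674, plus strand) encode the adipocyte and the epidermal fatty acid binding proteins, which carry fatty acids in the cytosol. *Fabp4* had a lowest value of 3105, a median of 5240.2 and a highest value of 6739 CPM in fl/fl. In iADKO *Fabp4* had a lowest value of 2454, a median of 3282 and a highest value of 4619.9 CPM. All fl/fl libraries but replicates 2 and 5 were above every iADKO library, and iADKO replicate 6 was the highest of its group. The log2 fold change was -0.61 (SE 0.18, edgeR adjusted p = 0.0215). Without iADKO replicate 2 the adjusted p was 0.0522 (range over the alternatives 0.00233 to 0.14).
*Fabp5* had a lowest value of 176, a median of 247 and a highest value of 305 CPM in fl/fl. In iADKO it had a lowest value of 178, a median of 194 and a highest value of 236 CPM. Its iADKO libraries all lay inside the span of the fl/fl libraries. The log2 fold change was -0.29 (SE 0.13, edgeR adjusted p = 0.102), and without fl/fl replicate 5 it was -0.35 with an adjusted p of 0.0246 (range over the alternatives 0.0246 to 0.199).
The log2 ratio of *Fabp5* to *Fabp4* was higher in iADKO by 0.33 (SE 0.14, two-sided exact permutation with n = 7 and 6, p = 0.039, adjusted over the 6 ratios p = 0.0469). At -4.66, iADKO replicate 6 lay below every fl/fl library but replicate 6, and the other 5 iADKO libraries ran from -4.14 to -3.77. This call was lost on leaving out any of 11 of the 13 libraries (adjusted p up to 0.102), all but fl/fl replicate 5 and iADKO replicate 6.
Both genes lie in a cluster on chromosome 3 with *Pmp2*, *Fabp9* and *Fabp12*, which were hardly counted. *Fabp9* had 1 count in the fl/fl libraries together and 19 in the iADKO libraries together, *Pmp2* had 1 and 12, and *Fabp12* had 38 and 21. None of these 3 genes had enough counts to be tested.

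*Slc27a1* (ENSMUSG00000031808, chromosome 8 from 72021095 to 72041866, plus strand) encodes fatty acid transport protein 1, a membrane protein with acyl-CoA synthetase activity. In fl/fl *Slc27a1* had a lowest value of 955, a median of 1305 and a highest value of 1509.9 CPM. In iADKO *Slc27a1* had a lowest value of 459, a median of 668 and a highest value of 987 CPM. All iADKO libraries but replicate 6 lay below every fl/fl library, and fl/fl replicates 2 and 5 were the lowest of their group. *Slc27a1* was at 1273 ± 239 CPM (SD, n = 7) on average in fl/fl against 671 ± 180.4 CPM (SD, n = 6) in iADKO, and its log2 fold change was -0.92 (SE 0.17, edgeR adjusted p = 0.00171). *Nxnl1*, on the opposite strand, overlaps the start of *Slc27a1* in the annotation. Whether the counting used strand is not given in the sources used here, and *Nxnl1* held 2.94 to 9.60 CPM over the 13 libraries.
*Acsl1* (ENSMUSG00000018796, chromosome 8 from 46924063 to 46990145, plus strand) encodes the main long-chain acyl-CoA synthetase of adipocytes. Its fl/fl libraries had a lowest value of 2446, a median of 3346 and a highest value of 3928 CPM. Its iADKO libraries had a lowest value of 1309, a median of 1574 and a highest value of 2351 CPM. The groups did not overlap, though iADKO replicate 6 came close to fl/fl replicate 5. *Acsl1* was at 3264 ± 476 CPM (SD, n = 7) on average in fl/fl against 1675 ± 386 CPM (SD, n = 6) in iADKO, and its log2 fold change was -0.96 (SE 0.15, edgeR adjusted p = 0.000628). This was the largest among the 10 genes in this fit, within the SE of that of *Slc27a1*. With the animal-number range as a block *Slc27a1* had the larger change, at -0.99 against -0.91 for *Acsl1*.

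The libraries were sorted by hand into 4 ranges of animal number, of which 2 hold libraries of both labels. Taking 747 to 765 as a single range is a judgement, since no library lies between 750 and 765, and without animal 765 (iADKO replicate 1) it would hold 1 iADKO library. The within-range values and the block rest on this choice. With the range as a block, the difference between the groups comes only from the 2 ranges with both labels. Libraries 706 and 707 are fl/fl only and 974 and 975 iADKO only. The range 722 to 727 holds 2 fl/fl libraries (replicates 4 and 5) and 2 iADKO libraries (replicates 4 and 6), and the range 747 to 765 holds 3 fl/fl and 2 iADKO libraries. In this order, the log2 ratio of group means was -0.55 and -1.02 for *Lpl*, -0.39 and -0.59 for *Lmf1*, -0.54 and -1.37 for *Slc27a1* and -0.56 and -1.21 for *Acsl1*. These 4 genes were lower in both ranges, and all 4 passed with the range as a block in edgeR.
The other members were also compared within the ranges. The values were -0.14 and -0.86 for *Gpihbp1*, -0.051 and -0.59 for *Vldlr*, -0.079 and -1.04 for *Fabp4*, -0.085 and -0.59 for *Fabp5*, 0.065 and -0.53 for *Cd36* and 0.57 and -0.19 for *Angptl4*. With the range as a block *Gpihbp1*, *Vldlr* and *Fabp4* had log2 fold changes of -0.53 (SE 0.18), -0.34 (SE 0.11) and -0.60 (SE 0.26), near or beyond those without it, but did not pass (adjusted p = 0.0683, 0.0624 and 0.14 by edgeR, with ranges over the alternatives of 0.00102 to 0.0683, 0.00787 to 0.0717 and 0.00233 to 0.14). For the ratios, in the same order of ranges, the differences were 1.14 and 0.92 for *Angptl4* over *Lpl*, 0.45 and 0.14 for *Gpihbp1* over *Lpl* and 0.18 and 0.42 for *Lmf1* over *Lpl*. They were -0.26 and -0.77 for *Gpihbp1* over *Pecam1*, -0.22 and 0.061 for *Lpl* over *Adipoq* and -0.019 and 0.44 for *Fabp5* over *Fabp4*. The sign turned against that over all libraries in 1 of the 2 ranges for *Cd36*, *Angptl4*, *Lpl* over *Adipoq* and *Fabp5* over *Fabp4*. The difference between the ranges was not tested.

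Per kilobase of the annotated canonical transcript, which allows levels to be compared between genes, *Fabp4* stood highest in fl/fl at 3817 ± 919 CPM per kb (SD, n = 7), followed by *Lpl* at 2121 ± 403, *Cd36* at 929.7 ± 158 and *Acsl1* at 565 ± 82.4. *Fabp5* at 245 ± 50.4 and *Slc27a1* at 237 ± 44.5 did not differ beyond their spread. *Gpihbp1* at 97.3 ± 17.3 came before *Angptl4* at 65.0 ± 20.5, with SDs that overlap. *Lmf1* and *Vldlr* were lowest, at 18.2 ± 1.90 and 11.4 ± 2.45. In iADKO the level per length was 2504 ± 524 CPM per kb (SD, n = 6) for *Fabp4*, 1158 ± 182 for *Lpl*, 775 ± 113 for *Cd36* and 289.8 ± 66.8 for *Acsl1*. It was 201 ± 23.7 for *Fabp5*, 125 ± 33.6 for *Slc27a1*, 12.7 ± 0.996 for *Lmf1* and 8.82 ± 0.574 for *Vldlr*. The order of the 10 genes was the same there except that *Angptl4*, at 79.4 ± 25.2, came before *Gpihbp1*, at 71.0 ± 11, a pair within their spread. The annotation behind the deposited counts is not given in the sources used here, so the lengths are approximate, and the order of *Lmf1* and *Vldlr*, of *Gpihbp1* and *Angptl4* and of *Fabp5* and *Slc27a1* rests on the transcript chosen.

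Across the 13 libraries, the genes whose log2 CPM followed that of *Lpl* most closely, each centred on its own mean, were *Fads3*, *Slc7a10*, *Fgfrl1*, *Abcd2* and *Negr1*, with root mean square differences of 0.105 to 0.122 among 13854 genes compared. Their log2 fold changes ran from -0.90 to -0.81. The genes nearest to *Gpihbp1* were *Polr1has*, *Bola3*, *Pmpcb*, *Ghitm* and *Spg7*, at 0.0997 to 0.115, with log2 fold changes from -0.53 to -0.41. Among the members, *Gpihbp1* and *Cd36* were the closest pair (0.156) and *Angptl4* and *Acsl1* the farthest (0.795).

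The rest of the pathway was read from a list of 60 genes, of which 59 were counted and 49 tested, and *Fabp6* was not analysed here. At an adjusted p under 0.05 by edgeR, 19 were lower and 2 higher in iADKO, beside 16.3% of all genes tested lower and 14.1% higher, with a median log2 fold change of -0.22. These counts moved with the fit. With the animal-number range as a block 7 were lower (*Pcsk5*, *Sort1*, *Dbi*, *Vegfb*, *Rxra*, *Cebpa* and *Klf15*), beside 1202 of the 16753 genes tested. The other 12 did not pass. Their log2 fold changes ran from -1.90 (*Slc27a2*) to -0.21 (*Scarb1* and *Zdhhc4*) in that fit, and from -1.98 to -0.23 without the block. By DESeq2 24 were lower. The number higher was 5 by DESeq2, 5 with the replicate block, 4 with no filter on low counts, 6 without fl/fl replicate 5 and 4 without fl/fl replicate 7. Among the regulators of the lipase, 4 of 8 tested genes were lower and 0 higher, with 0 also higher at an unadjusted p under 0.05 and by DESeq2. *Angptl8*, a secreted regulator of the lipase, was at 13.8 ± 4.47 CPM (SD, n = 7) on average in fl/fl against 7.01 ± 4.10 CPM (SD, n = 6) in iADKO, and its log2 fold change was -0.98 (SE 0.30, edgeR adjusted p = 0.0249), though iADKO replicate 2 at 15.3 CPM stood inside the fl/fl range. The call was lost in 8 of the 24 alternative fits, among them the range as a block and those without iADKO replicate 1, 3, 4 or 5 (adjusted p 0.00114 to 0.175 over them). *Sort1*, a sorting receptor, had -0.67 (adjusted p = 0.0023), and the proprotein convertase genes *Pcsk6* and *Pcsk5* had -0.63 and -0.33. *Apoc1*, *Apoc3* and *Furin* had log2 fold changes of -0.05, -0.96 and 0.028 and did not pass.
The genes of the lipase's folding in the endoplasmic reticulum and of related lipases gave 0 calls in 5 tested, with 1 at an unadjusted p under 0.05 (*Canx*, 0.13) and 2 by DESeq2. *Lipg*, the endothelial lipase gene, had a log2 fold change of -0.22 and did not pass. The *Lmf1* paralogue *Lmf2* was at 68.0 ± 5.36 CPM (SD, n = 7) on average in fl/fl against 69.0 ± 2.96 CPM (SD, n = 6) in iADKO, with a log2 fold change of 0.02 (SE 0.055, edgeR adjusted p = 0.803) whose sign turned on leaving out fl/fl replicate 7. Among lipoprotein receptors and carriers, *Scarb1*, a receptor of high density lipoprotein, fell by 0.29 on the log2 scale (adjusted p = 0.00497). *Sdc1*, which encodes the heparan sulfate carrier syndecan 1, rose, at 63.9 ± 17.9 CPM (SD, n = 7) on average in fl/fl against 107 ± 17.7 CPM (SD, n = 6) in iADKO and with a log2 fold change of 0.74 (SE 0.16, edgeR adjusted p = 0.00477), and it had every iADKO library above every fl/fl library. *Lrp1* and *Lrp8* had -0.047 and 0.54 and did not pass, though *Lrp8* did without fl/fl replicate 5, at 0.64 (adjusted p = 0.0278), without fl/fl replicate 7, at 0.66 (adjusted p = 0.0282), and with the replicate block, at 0.68 (adjusted p = 0.0177) (range over the alternatives 0.0177 to 0.136). Among the partners of the translocase, *Cav1* and *Zdhhc4* were lower, at -0.54 and -0.23, and the kinase gene *Lyn* was higher, at 0.42 (SE 0.09, edgeR adjusted p = 0.00378).

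Of the 11 tested genes among the other binding, transport and synthetase genes, *Dbi* and *Slc27a2* were lower, beside 16.3% of all genes tested. None of the 4 other long-chain acyl-CoA synthetase genes passed in edgeR, and 1 (*Acsl6*, 0.72) was higher at an unadjusted p under 0.05, as was 1 by DESeq2. *Acsl6* passed in 8 of the 23 alternative fits that tested it. These were the replicate block, at 0.94 (adjusted p = 0.0129), the fits without fl/fl replicate 7, iADKO replicate 1 or iADKO replicate 4, at 0.93 (adjusted p = 0.0106), 0.80 (adjusted p = 0.0459) and 0.80 (adjusted p = 0.0485), the fit without the 2 libraries with liver-type genes, TMM without the 10 genes with the most counts, DESeq2 and limma (range over the alternatives 0.0106 to 0.306). *Acsl5* was at 81.5 ± 4.20 CPM (SD, n = 7) on average in fl/fl against 83.0 ± 2.94 CPM (SD, n = 6) in iADKO, with a log2 fold change of 0.028 (SE 0.045), and *Acsl3* and *Acsl4* had -0.21 and 0.14. Of the other fatty acid transport proteins, *Slc27a4* was at 68.2 ± 10.6 CPM (SD, n = 7) on average in fl/fl against 61.3 ± 3.31 CPM (SD, n = 6) in iADKO, with a log2 fold change of -0.15, *Slc27a3* had 0.22 and *Slc27a6* 0.24, and none of these 3 passed, though *Slc27a3* did without iADKO replicate 6, at 0.28 (adjusted p = 0.0406) (range over the alternatives 0.0406 to 0.282). *Slc27a2*, at 0.0487 to 3.90 CPM in the 13 libraries, passed at -1.98 (adjusted p = 0.0499), and the call was lost in 8 of the 17 alternative fits that tested it, among them those without iADKO replicate 1, 2, 3, 4 or 6 (adjusted p 0.0136 to 0.217). Of the other fatty acid binding proteins, *Fabp3* and *Fabp7* were at 1.99 and 0.553 CPM in fl/fl and did not pass, though *Fabp7* did without fl/fl replicate 5, at 1.21 (adjusted p = 0.044) (range over the alternatives 0.044 to 0.3). *Dbi*, which encodes the acyl-CoA binding protein, was at 627 ± 107 CPM (SD, n = 7) on average in fl/fl against 357 ± 59.9 CPM (SD, n = 6) in iADKO, and its log2 fold change was -0.81 (SE 0.13, edgeR adjusted p = 0.000878).

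Of the 5 regulators of fatty acid transport across endothelium, 4 were lower in iADKO by edgeR, beside 16.3% of all genes tested. *Vegfb*, a growth factor gene, had -0.74 on the log2 scale (SE 0.12, edgeR adjusted p = 0.000794), and the transcription factor genes *Tcf15* and *Meox2*, whose products act together on fatty acid uptake in heart endothelium, had -0.60 and -0.48. *Flt1*, a receptor of VEGF-B, had -0.28, and *Nrp1*, its coreceptor, had 0.018 and did not pass. With the range as a block 1 of the 5 (*Vegfb*) was lower, beside 1202 of the 16753 genes tested. *Tcf15*, *Flt1* and *Meox2* had log2 fold changes of -0.72, -0.30 and -0.38 in that fit and did not pass. The call of *Tcf15* was also lost without iADKO replicate 1 or 2 and with the replicate block, and that of *Flt1* without iADKO replicate 2 (adjusted p over the alternatives 0.0072 to 0.0755 and 0.00106 to 0.0839). Of the 7 transcriptional regulators 6 were lower, and 3 with the range as a block (*Rxra*, *Cebpa* and *Klf15*). *Pparg*, the nuclear receptor of adipocyte differentiation, had -0.70 (SE 0.15, edgeR adjusted p = 0.00405), its partner *Rxra* -0.35, *Cebpa* -0.75, *Ppara* -0.81, *Klf15* -0.62 and *Ppard* -0.28. These are RNA levels. The study's blots of male mice at 2 weeks showed PPARγ and C/EBPα protein unchanged in subcutaneous fat. In epididymal fat they showed PPARγ protein slightly higher in iADKO. With the range as a block *Pparg*, *Ppara* and *Ppard* had -0.54, -0.82 and -0.29 and did not pass. The call of *Ppard* was lost in 11 of the 24 alternative fits, among them those without fl/fl replicate 1, 2 or 3 or iADKO replicate 1, 2, 3 or 5 (adjusted p 0.0134 to 0.118 over them). *Ppargc1a* had -0.44 and did not pass.

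**Figure D2:**
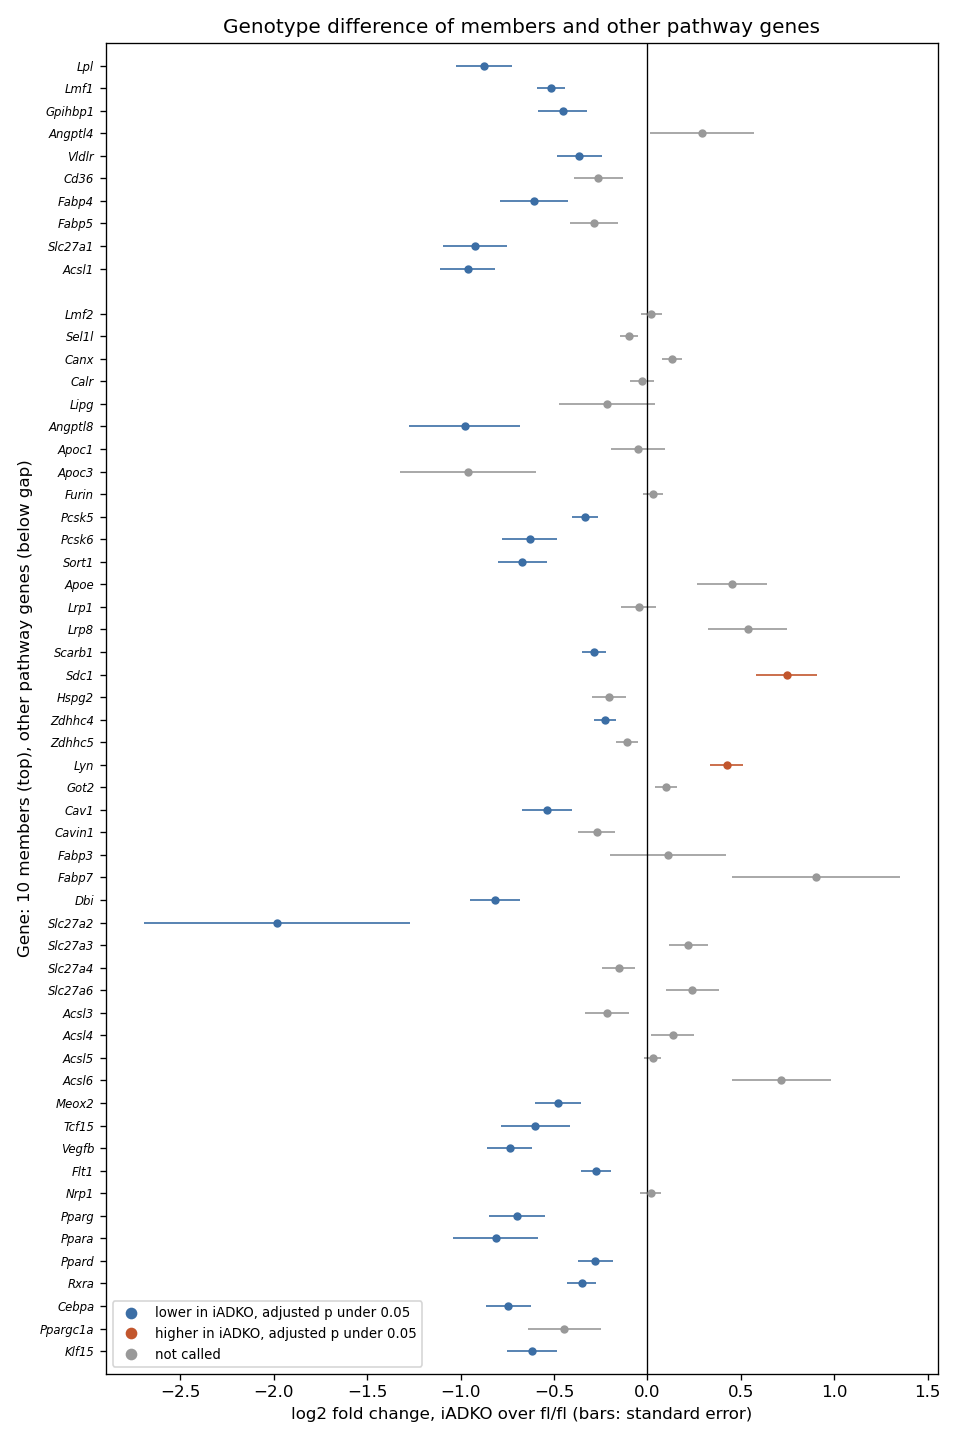
Log2 fold change of iADKO over fl/fl libraries with its standard error (bars) for the 10 members, at the top, and 47 of the 49 other tested genes of the pathway, below. The 2 not drawn did not pass. Blue marks genes lower and orange genes higher at an adjusted p under 0.05 in edgeR, and grey those that did not pass. Among the members 7 are blue, and below them 19 are blue and 2 orange.

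Markers of cell types, also chosen with earlier results of these data known, moved with these results. All 7 adipocyte markers were lower in iADKO by edgeR (beside 16.3% of all genes tested), with a median log2 fold change of -1.04. Their summed level, led by *Cfd*, went from 18827 ± 2082 CPM (SD, n = 7) to 10485 ± 2217 CPM (SD, n = 6). It spanned 14801 to 20995 CPM in the libraries labelled fl/fl and 8768 to 14648 CPM in those labelled iADKO, with fl/fl replicate 5 the lowest of its group and iADKO replicate 6 the highest of its own, so that the groups did not overlap. None of these markers was at 0 in any library. The difference in the log2 ratio of *Lpl* to *Adipoq* in the same library was -0.11 (SE 0.10, two-sided exact permutation with n = 7 and 6, p = 0.287, adjusted over the 6 ratios p = 0.287). This ratio depends on the marker it is set against. *Lpl* had a log2 fold change of -0.87. *Cfd*, *Adipoq* and *Plin1* fell less, at -0.69, -0.75 and -0.81. *Plin4*, *Lep*, *Cidec* and *Retn* fell more, at -1.04, -1.10, -1.11 and -1.15. No ratio of *Lpl* to another adipocyte marker was tested. Of the 7 endothelial markers 2 were lower (*Kdr* -0.48 and *Cdh5* -0.29), and their summed level, led by *Pecam1*, went from 964 ± 97.4 CPM (SD, n = 7) to 860.5 ± 54.6 CPM (SD, n = 6).
Of the 8 macrophage markers 5 were higher (beside 14.1% of all genes tested), and their summed level, led by *Lyz2*, went from 2789.6 ± 1162 CPM (SD, n = 7) to 4316 ± 709 CPM (SD, n = 6). At 5179 CPM fl/fl replicate 5 exceeded all iADKO libraries, and at 3005 CPM iADKO replicate 6 lay below fl/fl replicate 7. Lipid-associated macrophage markers were higher in 3 of 5, with a summed level, led by *Gpnmb*, that went from 581 ± 303 CPM (SD, n = 7) to 1053 ± 225 CPM (SD, n = 6). Lymphocyte markers were higher in 3 of 7 (41.8 ± 10.1 CPM (SD, n = 7) to 65.4 ± 13.5 CPM (SD, n = 6), led by *Cd79a*), and no macrophage or lymphocyte marker was at 0 in any library. With the animal-number range as a block 6 of the 7 adipocyte markers were lower, 0 of the 8 macrophage markers and 0 of the 5 lipid-associated ones higher by edgeR, and 2 of the 7 lymphocyte markers higher. The part of these cell types in the members' differences was not tested.
Adipose progenitor, mesothelial and skeletal muscle markers gave 0 calls in 5 each by edgeR, with 1, 1 and 0 at an unadjusted p under 0.05 and 0, 1 and 0 by DESeq2, and 4 skeletal muscle markers were lower with the range as a block. Skeletal muscle markers, led by *Acta1* and with *Myh4* at 0 in some libraries, had a summed level of 288 and 361 CPM in fl/fl replicates 1 and 5 and of 126 and 199 CPM in iADKO replicates 3 and 5. Leaving out these 4 libraries, a choice made after seeing the data, left 6 members lower, with *Lpl* at -0.76. Of the mural markers 1 of 5 was lower (*Cspg4*), of the brown adipocyte markers 2 of 3 were lower (*Ucp1* and *Cox7a1*), and of the epithelial markers 2 of 4 were higher (*Krt8* and *Krt18*), with a summed epithelial level of 171 CPM in iADKO replicate 6 and at most 56.9 CPM in any other library. With the animal-number range as a block in edgeR, 0 of the 4 epithelial markers were higher, and 1 of the 3 brown adipocyte, 1 of the 7 endothelial and 1 of the 5 mural markers were lower.

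**Figure D3:**
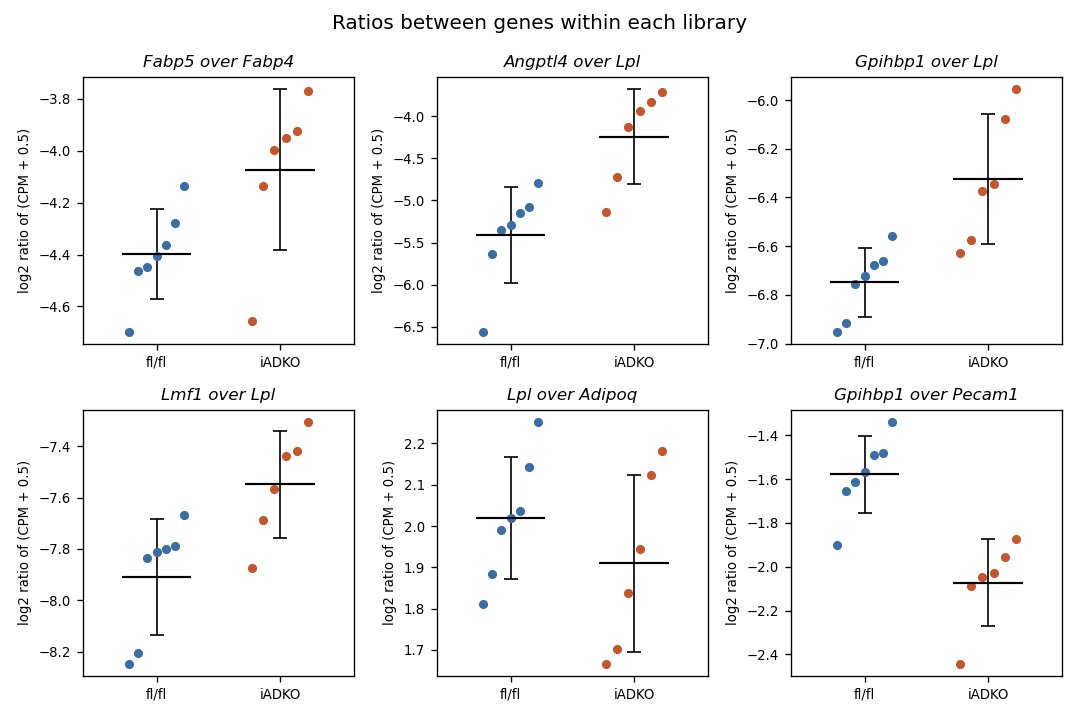
Log2 ratio of the CPM of each gene pair within each library, with 0.5 added to both CPM, in libraries labelled fl/fl (n = 7, blue) and iADKO (n = 6, orange). Points are libraries, and lines and bars are the mean and SD. *Angptl4* relative to *Lpl* is higher in 5 of the 6 iADKO libraries than in any fl/fl library, and *Lpl* relative to *Adipoq* overlaps between the groups.

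Promoter sequences of 5 members were found in the RefSeq table (build GRCm38.p6), *Cd36*, *Acsl1*, *Slc27a1*, *Lmf1* and *Vldlr*, in 9 windows of 250 bases before and 50 after a start site, of which the 250 before it are printed. *Lpl*, *Gpihbp1*, *Angptl4*, *Fabp4* and *Fabp5* were the other 5. Each window was searched on both strands. The nuclear receptor AGGTCA motif, the element that PPARγ and RXR bind as a direct repeat, was in 1 of the 9 windows, that of *Cd36*, and in 16.3% of all 32851 promoter windows. The direct repeat of this motif with 1 base between the copies was in 0 of 9, exactly or with the fourth base of each copy free, and in 0.0396% and 0.381% of all. TATAAA was in 0 of 9 and 13.6% of all, CCAAT in 5 of 9 and 37.4%, and GGGNGG in 9 of 9 and 68.6%. A match describes letters, not a site of binding.
Of the 250 bases before the start, the promoter of *Acsl1* farthest upstream was 72.0% G or C, that of *Lmf1* 66.8% and that of *Cd36* 43.2%, beside a median of 52.4% for all promoters. The other window of *Acsl1* was at 48.4%, those of *Slc27a1* at 66.4%, 60.8% and 58.4%, and those of *Vldlr* at 41.6% and 66.4%. Windows of *Acsl1*, *Lmf1* and *Cd36* are shown because *Acsl1* and *Lmf1* fell without overlap between the groups and *Cd36* did not pass. A link between base content and the change in level was not tested. *Acsl1* is chr8:46470787-46471036 on the plus strand, *Lmf1* chr17:25578924-25579173 on the plus strand and *Cd36* chr5:17835897-17836146 on the minus strand, all of GRCm38.p6 and written 5′ to 3′ along the gene's strand. Capitals mark the receptor motif AGGTCA, the box named CCAAT and the element GGGNGG on either strand, and matches to the last of these can overlap each other.
Acsl1: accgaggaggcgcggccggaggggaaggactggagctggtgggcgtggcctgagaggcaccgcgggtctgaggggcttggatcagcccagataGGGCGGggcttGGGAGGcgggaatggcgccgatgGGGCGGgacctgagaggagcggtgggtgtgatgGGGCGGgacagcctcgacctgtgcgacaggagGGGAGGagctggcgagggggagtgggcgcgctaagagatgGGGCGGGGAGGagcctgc
Lmf1: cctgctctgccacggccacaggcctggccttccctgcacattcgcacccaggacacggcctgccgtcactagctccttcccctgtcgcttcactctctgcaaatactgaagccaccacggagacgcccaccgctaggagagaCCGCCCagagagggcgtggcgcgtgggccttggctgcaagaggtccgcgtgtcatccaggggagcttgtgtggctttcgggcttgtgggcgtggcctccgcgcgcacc
Cd36: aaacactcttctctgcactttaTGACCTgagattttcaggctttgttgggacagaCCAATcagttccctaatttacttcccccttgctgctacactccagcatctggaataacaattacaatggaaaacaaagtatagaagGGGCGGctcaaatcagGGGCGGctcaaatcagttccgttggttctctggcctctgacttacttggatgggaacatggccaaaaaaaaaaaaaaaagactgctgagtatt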

How the data were processed

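Whole pmWAT libraries, 7 labelled fl/fl and 6 labelled iADKO, were grouped by their sample labels. The authors deposited raw counts per Ensembl gene, without normalization, and log2 values made from them by DESeq2's regularized log. Per the labels and the paper, strand-specific mRNA libraries were checked with FastQC 0.12.1 and aligned with STAR 2.7.11a to mm39. The counting tool and gene annotation are not given in the sources used here. Symbols, coordinates and canonical transcripts came from GENCODE vM39 (GRCm39), in which 33184 of 33618 genes were found.

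In R 4.3.3, edgeR 4.0.16 was used with filterByExpr (16753 genes left), TMM and a robust quasi-likelihood test, with Benjamini-Hochberg adjustment over all genes tested and a threshold of 0.05. The SE of a log2 fold change is its size over the square root of the F statistic. Ratios of CPM, with 0.5 added, were compared by exact permutation over all 1716 splits, for which the smallest p is 0.000583. The depth of 18854223 to 19776491 counts per library sets the counting error, which is included in the spread between libraries. The edgeR fit was also tested on simulated counts.

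The members, the gene lists and the markers were chosen with earlier results of these data known. Genes named beyond the members are *Lmna*, the members' paralogues in the pathway list, up to 5 genes with the highest and 5 with the lowest log2 fold changes in that list (adjusted p under 0.05, mean log2 CPM 1 or more), and the 5 genes nearest to *Lpl* and to *Gpihbp1*. Other pathway genes were named after their values were seen. Alternatives were DESeq2 1.42.0, its size factors in edgeR, TMM without mitochondrially encoded genes or without the 10 genes with the most counts, other filters on low counts, blocks for replicate number or animal-number range, limma 3.58.1 on the deposited log2 values, other pseudocounts, and leaving out libraries.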

Additional observations from a re-analysis of the deposited data

Results flagged for a closer look

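A library far from the others of its group, by the gap to its nearest neighbour relative to the group's range, was found in 8 of the 102 groups of values examined, and chance flags about 1 in 20 groups. In the libraries labelled fl/fl, replicate 5 was lowest by such a gap in *Dbi* (395 CPM, others 626 to 719), *Vegfb* (75.8 CPM, others 104 to 117), *Bola3* (12.0 CPM, others 18.5 to 21.6) and *Pmpcb* (65.6 CPM, others 88.8 to 106). In the libraries labelled iADKO, replicate 6 was highest in *Sdc1* (141 CPM, others 92.1 to 109), *Cebpa* (689 CPM, others 439 to 530.1) and *Vegfb* (87.3 CPM, others 52.7 to 63.1), and replicate 2 was highest in *Angptl8* (15.3 CPM, others 4.99 to 5.84). None of the 10 members and none of the 6 ratios had such a library.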

How the results depend on the processing

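Each member kept its sign in all 24 alternative fits. Of these 240 member values, 221 stayed on their side of the threshold, 16 lost the call and 3 gained it, and *Lpl*, *Lmf1*, *Slc27a1* and *Acsl1* passed in all 24. The animal-number range as a block moved the counts most, to 784 genes higher and 1202 lower of all tested, 4 members lower and 7 pathway genes lower. That fit estimates more terms, and its difference between the groups comes from the ranges 722 to 727 and 747 to 765 alone. Libraries 706 and 707 are fl/fl only and 974 and 975 iADKO only. The cause was not tested. With the replicate block, which leaves out fl/fl replicate 7, 2379 genes were higher and 2454 lower, 1 member was higher (*Angptl4*, 0.39, adjusted p = 0.0216 by edgeR, range over the alternatives 0.0216 to 0.773) and 5 pathway genes were higher. Residuals of same-numbered libraries correlated at -0.026 to 0.22 across genes, with a mean of 0.11 beside -0.02 for other pairs, and whether the numbers pair the libraries is not stated. *Gpihbp1* over *Lpl* was 0.43 with this block (exact sign-flip permutation, adjusted p = 0.075, range over the alternatives 0.00524 to 0.075). The pathway genes higher were 5 with DESeq2 and 4 with no filter on low counts. Leaving out each library in turn gave 1769 to 3319 genes higher and 2216 to 3285 lower, 5 to 9 members lower, and 2 to 6 pathway genes higher (6 without fl/fl replicate 5 and 4 without fl/fl replicate 7) and 15 to 22 lower. It gave log2 ratios of 0.27 to 0.44 for *Fabp5* over *Fabp4* and 0.30 to 0.43 for *Lmf1* over *Lpl*. Within the animal-number ranges 722 to 727 and 747 to 765, in that order, *Fabp5* over *Fabp4* was -0.019 (turned in sign) and 0.44, *Gpihbp1* over *Lpl* 0.45 and 0.14, and *Gpihbp1* over *Pecam1* -0.26 and -0.77, with no test. Results that had not passed also turned in sign in 1 range: *Lpl* over *Adipoq* was -0.22 and 0.061, *Cd36* 0.065 and -0.53 and *Angptl4* 0.57 and -0.19. Genes that did not pass turned in sign in *Lmf2* (-0.0018 without fl/fl replicate 7, -0.0018 to 0.045 over all libraries left out), *Lrp1* (0.016 without iADKO replicate 6, range -0.081 to 0.016) and *Fabp3* (-0.0058, -0.0037 and -0.0074 without fl/fl replicate 3, fl/fl replicate 4 and iADKO replicate 3, range -0.0074 to 0.31, and -0.038 without the 4 libraries with the most *Myh4*). Leaving out those 4, or the 2 libraries with liver-type genes, was chosen after seeing the data and left 6 and 6 members lower. A fit without the libraries nearest the other group (fl/fl replicate 5 with iADKO replicate 6) was also run after seeing the data and set aside, because it picks libraries by the outcome measured. The cause of these moves was not tested. Genes under about 1 CPM, such as *Fabp7*, rest on few counts, and their fold changes are imprecise.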

Other observations

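A pair of libraries labelled fl/fl, replicates 2 and 7, held genes that are known for their expression in liver and were low elsewhere. In the pathway list, *Fabp1*, the liver fatty acid binding protein gene, was at 5.82 and 5.44 CPM in these libraries and at most 0.528 CPM in the other 11. *Apoa5*, a circulating activator of the lipase, was at 2.85 and 1.35 CPM and at most 0.144 CPM elsewhere, and *Slc27a5*, a bile acid and fatty acid ligase gene, at 2.31 and 1.45 CPM and at most 0.336 CPM. A further 8 genes were looked up after these values were seen (*Alb*, *Apoa1*, *Apoa2*, *Apob*, *Ttr*, *Fgb*, *Cyp3a11* and *Apoh*), and their summed level, led by *Alb*, was 251 and 171 CPM in the same libraries and 5.97 to 22.4 CPM in the other 11. Without both libraries, the log2 fold change of *Lpl* was -0.92 (adjusted p = 0.00383 by edgeR, range over the alternatives 4.41e-09 to 0.0257) and that of *Acsl1* was -0.98 (adjusted p = 0.00322, range 8.19e-10 to 0.0234), and 6 members were lower, *Vldlr* no longer among them. *Slc27a2*, which was highest in these 2 libraries, had too few counts to be tested without them.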
